A study of Arabidopsis thaliana with 9 samples.

Results

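This account follows 5 genes that plants switch on when oxygen runs low, read on 9 Affymetrix ATH1 arrays of whole Arabidopsis thaliana seedlings. They are the fermentation enzymes PDC1 (AT4G33070, probe set 253416_at) and ADH1 (AT1G77120, 264953_at), the sucrose synthases SUS1 (AT5G20830, 245998_at) and SUS4 (AT3G43190, 252746_at), and the transcription factor LBD41 (AT3G02550, 258487_at). They were chosen by name, as a check on the sealed dishes in which treated seedlings were kept, and make up 5 of the 22746 probe sets tested. The pairing of probe set with gene comes from that choice, since the platform annotation used here lists 0 of the 5. All 5 loci were found in RefSeq's gene table under the same symbol or a synonym.

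When respiration lacks oxygen, plant cells keep glycolysis running by fermentation. Pyruvate decarboxylase, encoded by PDC1, turns pyruvate into acetaldehyde, and alcohol dehydrogenase, encoded by ADH1, reduces that to ethanol and so returns the NAD+ that glycolysis needs. Sucrose synthase feeds the pathway by splitting sucrose without spending ATP. In Arabidopsis these genes are activated by the group VII ethylene response factors, which are broken down when oxygen and nitric oxide (NO) are both present and persist when either is scarce. LBD41, a protein with a LOB domain, is itself strongly induced by low oxygen.

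All samples were Columbia-0 seedlings of 8 days, in 3 groups of 3 arrays. The SNP seedlings sat for 5 days from day 3 in open dishes beside 15 ml of 100 uM sodium nitroprusside, an NO donor, inside a sealed larger dish. The cPTIO seedlings, sealed for the same time, received 2 ml of 1 mM cPTIO, an NO scavenger, directly in their dishes. The third group had no agent, and the series' design text names it SDW without explanation. The labels leave unsaid whether the untreated seedlings were also sealed in, so agent and sealing cannot be told apart in comparisons with them. Each treatment had 3 dishes inside its sealed dish, and the labels do not say whether those 3 are the 3 replicates, so the p-values reflect sample-to-sample spread alone, and that spread may be technical.

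Values are log2 expression after RMA, which puts all arrays on a common scale, and array medians ran from 4.47 to 4.60. A probe set near those medians is not shown to lie above background, since no detection calls were used. cPTIO replicate 3 stood apart from the other cPTIO arrays, so results that rest on it are given with and without it. The BioC spike-in, a bacterial transcript added to every array and not made by the plant, averaged 8.53 ± 0.09 in SNP and 8.36 ± 0.51 in cPTIO, against 6.32 ± 0.18 in untreated (SD, n = 3 arrays each). On a linear scale the 6 treated arrays were 4.36-fold above the 3 untreated ones (exact two-sided permutation p = 0.0238, the smallest this design allows), and its part in the comparisons with untreated was not tested. BioC was picked from the 64 AFFX controls because it moved with treatment, so this p only describes that separation. The other controls are not given here. RCA, the green-tissue gene for Rubisco activase and the 1 matched marker of 6 for that tissue, was high on every array, between 12.79 and 13.19. The root hair expansins EXPA7 and EXPA18, the 2 matched markers of 5 for root, lay between 4.66 and 6.64. No listed seed marker could be matched.

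No member was called in any comparison by limma at an adjusted p under 0.05, with p-values adjusted over all 22746 probe sets. The background was a call rate of 6.19% of probe sets for SNP against untreated, 6.59% for cPTIO against untreated, 3.26% for SNP against cPTIO and 7.24% for the mean of both treatments against untreated. By direction, 2.57% of probe sets were called higher and 3.62% lower in SNP against untreated, 2.32% and 4.27% in cPTIO against untreated, 1.68% and 1.59% in SNP against cPTIO, and 2.62% and 4.62% over both treatments. With each array centred on its median, the calls split into 815 higher and 713 lower in place of 585 and 824 for SNP against untreated, 753 and 772 in place of 527 and 971 for cPTIO against untreated, and 901 and 863 in place of 596 and 1051 over both. At an unadjusted limma p under 0.05 the member counts were 2, 0, 3 and 1 of 5 in that order of comparisons. Over all 22746 probe sets the counts at that threshold were 4739, 5404, 4138 and 5376. All 5 nevertheless had their lowest group mean in SNP, as did 31.9% of all probe sets. The values show an even SNP group and a divided cPTIO group, and the members are described below in the order of the pathway.

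**Figure D1:**
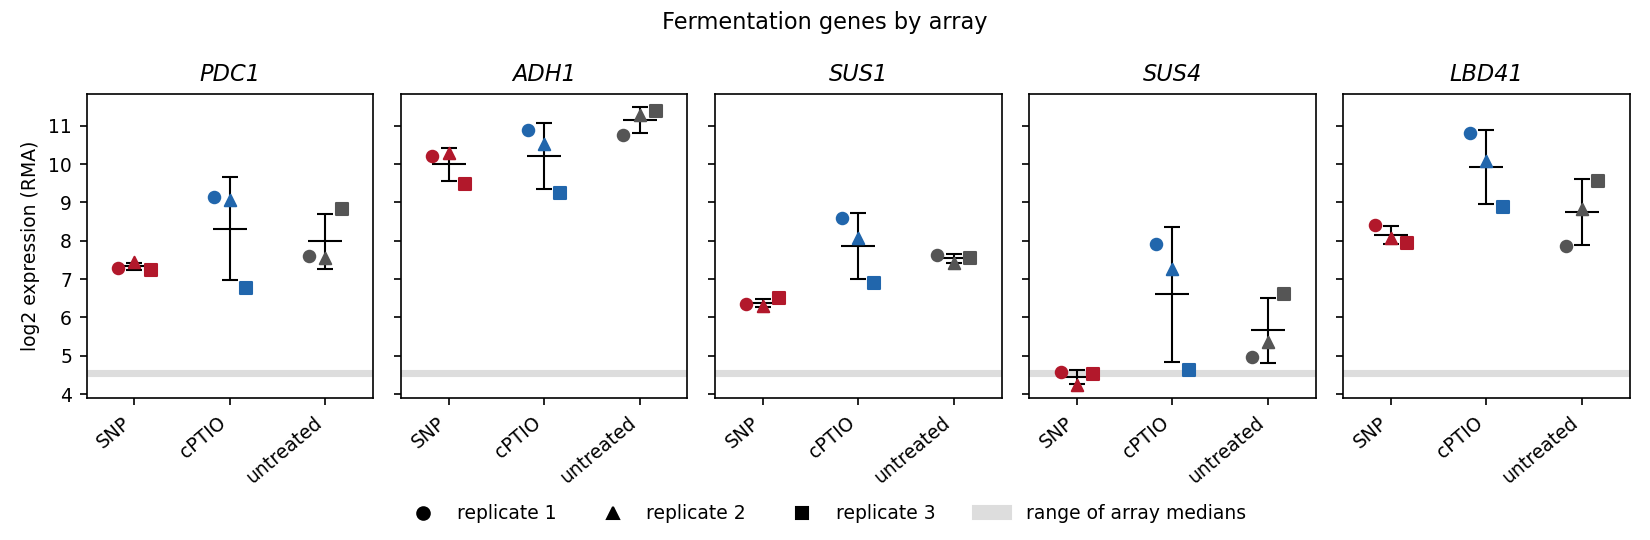
Log2 expression of the 5 genes (y axis) on each array of SNP, cPTIO and untreated seedlings (x axis), with symbols for the replicate number, long bars for the group mean and whiskers for the SD (n = 3). The grey band is the range of array medians, 4.47 to 4.60. The square of cPTIO replicate 3 is the lowest cPTIO point in every panel, and in SUS4 it falls at 4.62, beside the SNP arrays.

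PDC1, the gene for the first committed step of ethanol fermentation, measured 7.29, 7.44 and 7.25 on the SNP arrays, 9.13, 9.06 and 6.77 on the cPTIO arrays, and 7.61, 7.55 and 8.82 on the untreated arrays. The SNP arrays all lay below the untreated ones, while cPTIO held the highest and the lowest value of the whole set. Its SNP minus untreated difference was -0.67 with an SE of 0.61 and a 95% interval from -2.07 to 0.73 (limma adjusted p = 0.619). For cPTIO minus untreated it was 0.33, with an interval from -1.07 to 1.73 (limma adjusted p = 0.792), and for SNP minus cPTIO -0.99, from -2.39 to 0.41 (limma adjusted p = 0.447). The data thus leave room for more than a doubling in either direction under cPTIO.

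ADH1 encodes the enzyme that makes ethanol from acetaldehyde, and its mean was lower in both treatments than in untreated seedlings. It measured 10.22, 10.28 and 9.48 in SNP, 10.88, 10.52 and 9.25 in cPTIO, and 10.75, 11.29 and 11.39 in untreated seedlings. The SNP arrays did not overlap the untreated ones, whereas cPTIO replicate 1 reached above the lowest untreated array. The difference from untreated was -1.15 in SNP (SE 0.41, limma adjusted p = 0.153), a level 2.22-fold lower, and -0.93 in cPTIO (SE 0.41, limma adjusted p = 0.219). Without cPTIO replicate 3 the cPTIO value was -0.44, with a 95% interval from -1.09 to 0.20 (limma adjusted p = 0.365). Averaged over both treatments it was -1.04, with a 95% interval from -1.86 to -0.22 (limma adjusted p = 0.123), or -0.80 without cPTIO replicate 3 (limma adjusted p = 0.0572). Between SNP and cPTIO the difference was -0.22, with an interval from -1.17 to 0.72 (limma adjusted p = 0.837). Neither treatment had an ADH1 mean above untreated. An effect of sealing was not tested, since the labels leave unsaid whether the untreated seedlings were sealed.

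SUS1, one of the sucrose synthases, came closest to a call. Its values were 6.36, 6.29 and 6.50 in SNP, 8.60, 8.07 and 6.91 in cPTIO, and 7.64, 7.42 and 7.55 in untreated seedlings. The SNP arrays lay below all 6 others, and the SNP and untreated groups were both tight. SNP minus untreated was -1.16, with an SE of 0.36 and a 95% interval from -1.97 to -0.34 (limma adjusted p = 0.1), or 2.23-fold lower. SNP minus cPTIO was -1.48, with an SE of 0.36 and an interval from -2.29 to -0.66 (limma adjusted p = 0.0679), or 2.78-fold lower. In cPTIO the values spread to either side of untreated, and the difference was 0.32, from -0.49 to 1.14 (limma adjusted p = 0.636).

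SUS4, the closest relative of SUS1 in Arabidopsis, had the widest spread of the 5. It measured 4.58, 4.25 and 4.52 in SNP, 7.91, 7.26 and 4.62 in cPTIO, and 4.98, 5.36 and 6.62 in untreated seedlings. The SNP arrays were again below all 6 others, by a margin of only 0.04 from cPTIO replicate 3. SNP minus cPTIO was -2.15 with an SE of 0.78 (limma adjusted p = 0.193), and SNP minus untreated was -1.20 with the same SE (limma adjusted p = 0.448). cPTIO minus untreated was 0.94, with a 95% interval from -0.85 to 2.73 (limma adjusted p = 0.513). Because the SNP values sat at the array medians, the size of these differences is uncertain. SUS1 and SUS4 are similar in sequence, and the probe sequences were not analysed here, so how far each probe set reads only its own gene was not tested.

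LBD41, the transcription factor, measured 8.42, 8.08 and 7.95 in SNP, 10.81, 10.09 and 8.89 in cPTIO, and 7.86, 8.82 and 9.56 in untreated seedlings. The SNP arrays lay below all cPTIO arrays, and the untreated arrays reached below and above the SNP range. SNP minus cPTIO was -1.78, with an SE of 0.53 and a 95% interval from -2.99 to -0.57 (limma adjusted p = 0.12). cPTIO minus untreated was 1.18, from -0.03 to 2.39 (limma adjusted p = 0.219), and SNP minus untreated was -0.60, from -1.81 to 0.61 (limma adjusted p = 0.603). Averaged over both treatments the difference from untreated was 0.29 (limma adjusted p = 0.758).

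Counted by overlap, 4 of the 5 members were lower in SNP than in untreated on every array, the exception being LBD41, and 15.9% of all probe sets did the same. In 3 of 5, SUS1, SUS4 and LBD41, every SNP array lay below every cPTIO array, as in 11.1% of all probe sets. None of the 5 separated cPTIO from untreated, and none separated the 6 treated arrays from untreated in either direction, against 26.4% and 13.4% of all probe sets. With 3 arrays against 3, an exact two-sided permutation test of one gene cannot go below p = 0.1. The median difference over the members was -1.15 for SNP minus untreated, 0.33 for cPTIO minus untreated and -1.48 for SNP minus cPTIO. Over all probe sets these medians were 0.00, 0.02 and -0.02. Both differences from untreated use the same 3 untreated arrays, and both SNP comparisons use the same 3 SNP arrays. The members also moved together over the 9 arrays, with Pearson's r from 0.39 (ADH1 and LBD41) to 0.95 (PDC1 and SUS4). Their counts are therefore not counts of independent genes. The expansins EXPA7 and EXPA18 fell in SNP too, by 0.98 and 1.28 on the log2 scale (limma adjusted p = 0.0192 and 0.00702), and EXPA18 fell by 0.79 in cPTIO (limma adjusted p = 0.0414). EXPA7's call was lost without any 1 of the untreated arrays, and EXPA18's call in cPTIO under 10 of the 15 other settings (limma adjusted p up to 0.0634 and 0.108). Their part in the members' differences was not tested. In whole seedlings, fewer cells of a type and less RNA per cell cannot be told apart.

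The spread inside the groups was unusually large for these genes. The pooled within-group SD was 1.13 for SUS4, 0.88 for PDC1, 0.76 for LBD41, 0.59 for ADH1 and 0.51 for SUS1. Only 0.251% of all probe sets varied more than SUS4, and 4.74% more than SUS1. In all 5 members cPTIO replicate 3 lay more than 1 log2 unit below both other cPTIO arrays, which 1.82% of all probe sets did. cPTIO replicate 1 was the highest cPTIO array in all 5. Among the untreated arrays, replicate 3 was the highest in 4 of 5, by more than 1 unit in PDC1 and SUS4. In SNP the SD was between 0.10 and 0.24 for every member except ADH1, with 0.44. BioC on cPTIO replicate 3 was 7.77, against 8.62 and 8.71 on the other cPTIO arrays. What set these arrays apart was not tested.

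Leaving out cPTIO replicate 3 made the standard errors of all 5 members smaller. It enlarged SNP minus cPTIO in all 5 and cPTIO minus untreated in 4, while that of ADH1 shrank. Since that array was the lowest cPTIO array in all 5, its removal had to raise their cPTIO means. The larger SNP minus cPTIO differences follow from that, and the calls below describe the remaining arrays without being separate evidence. In that fit 4 of the 5 members fell in SNP relative to cPTIO, against a background of 5.77% of probe sets called and 2.8% called lower. The other backgrounds in this paragraph and the next count calls in both directions. SUS1 fell by 1.95 (SE 0.16, limma adjusted p = 0.00157), SUS4 by 3.14 (SE 0.44, limma adjusted p = 0.00915), PDC1 by 1.77 (SE 0.34, limma adjusted p = 0.0272) and LBD41 by 2.3 (SE 0.45, limma adjusted p = 0.0276). ADH1 gave -0.71 (limma adjusted p = 0.197). Against untreated, SUS1 and SUS4 rose in the 2 remaining cPTIO arrays, by 0.80 and 1.93 (limma adjusted p = 0.0238 and 0.0342; background 9.29%). LBD41 gave 1.71 and PDC1 1.10 (limma adjusted p = 0.0523 and 0.0835). In SNP against untreated, ADH1 and SUS1 fell by 1.15 and 1.16, the same sizes as before (limma adjusted p = 0.0258 and 0.00331; background 11.2%). The same omission also raised the number of calls over all probe sets, and it is 1 of 9 such omissions. Omitting cPTIO replicate 1 gave SUS1 alone, in SNP against untreated (background 6.81%), and the other 7 gave no member.

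Settings that did not omit a single array also gave calls. With only the compared groups in the fit, and so without any cPTIO array, ADH1 and SUS1 fell in SNP against untreated (limma adjusted p = 0.0376 and 0.00236, background 10.7%). Array weights, which count a deviating array for less and gave cPTIO replicate 3 the lowest weight, 0.296, called the same 2 genes there (limma adjusted p = 0.026 and 0.00716; background 15.7%). With those weights SUS1, SUS4 and LBD41 fell in SNP against cPTIO (limma adjusted p = 0.00379, 0.0198 and 0.0234; background 7.26%), and ADH1 fell over both treatments (limma adjusted p = 0.037; background 15.0%). SUS1 fell in SNP against cPTIO when probe sets with a mean under 5 were left out (limma adjusted p = 0.0347; background 5.96%) and with a trended, robust prior (limma adjusted p = 0.0413; background 3.28%).

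**Figure D2:**
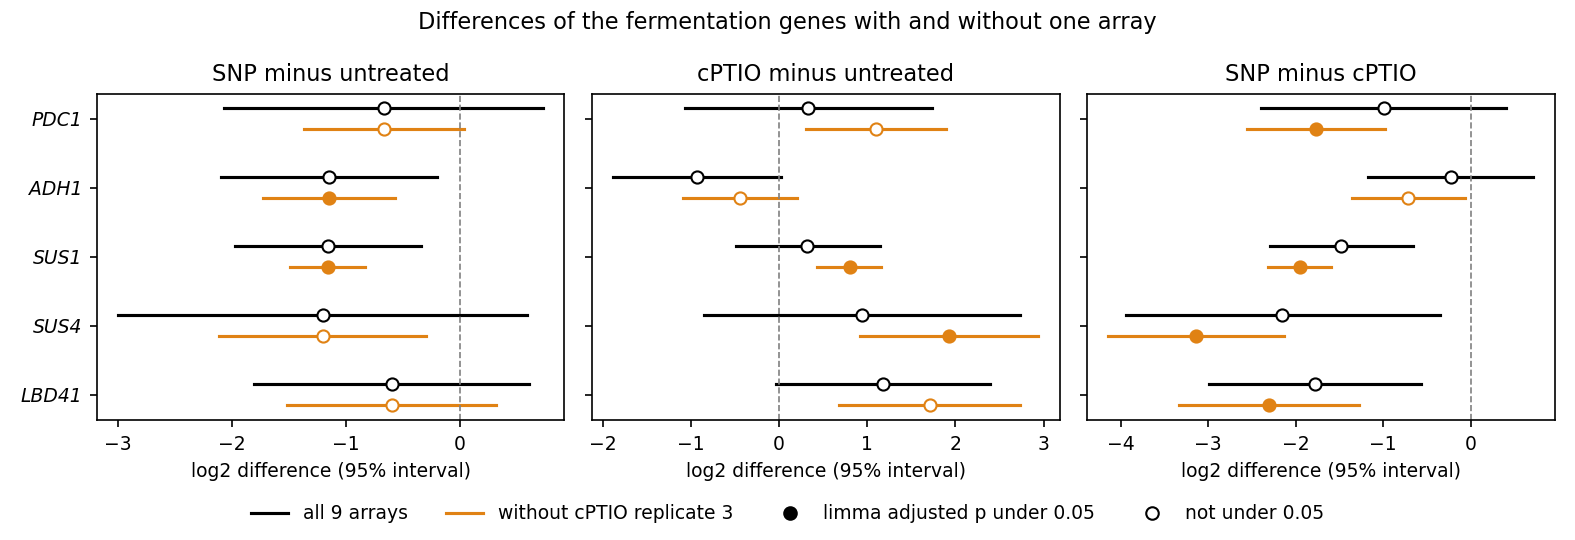
Log2 differences (x axis, points) with 95% intervals (lines) of the 5 genes (y axis) in the 3 comparisons between groups, with all 9 arrays in black and without cPTIO replicate 3 in orange. Filled points have a limma adjusted p under 0.05. All black points are open, while 4 orange points are filled in SNP minus cPTIO.

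**Figure D3:**
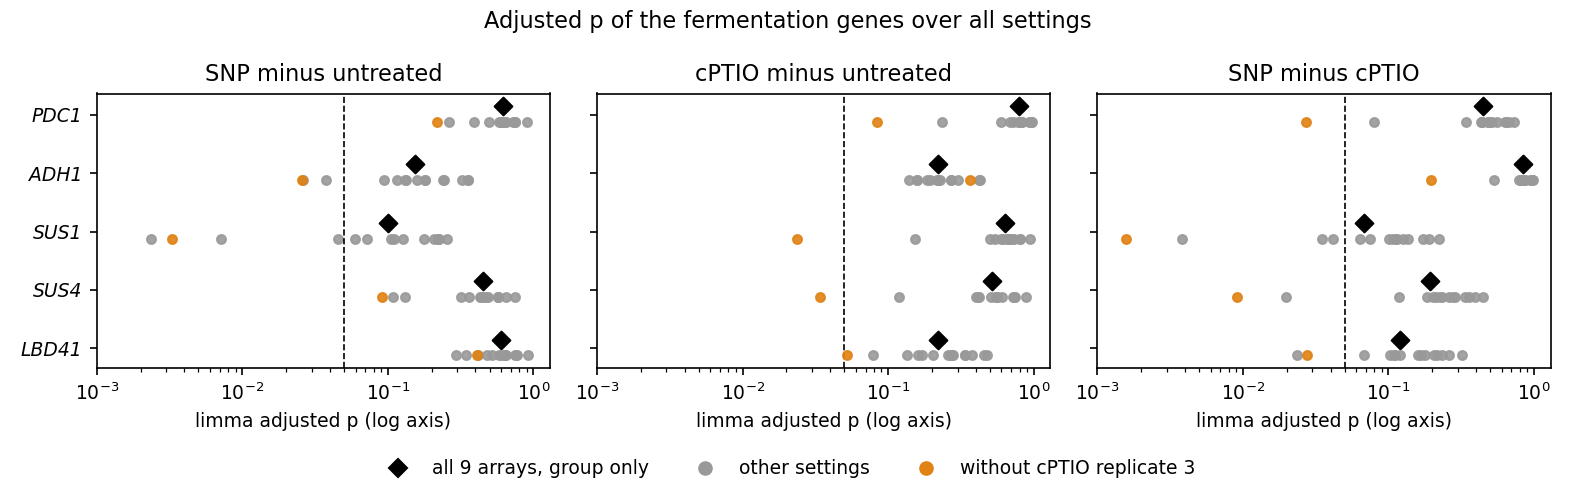
Limma adjusted p (x axis, log scale) of each gene (y axis) in the same comparisons. Black diamonds are the fit of all 9 arrays, grey points are 14 other settings and orange points leave out cPTIO replicate 3; the dashed line is 0.05. SUS1 has the most points left of the line, 4 of 15 in SNP minus untreated and 4 of 15 in SNP minus cPTIO.

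Neighbouring steps of the pathway were read from lists written for this work, of which only part could be matched to probe sets of a single gene. PDC2, the second pyruvate decarboxylase gene, measured 6.39, 6.86 and 6.87 in SNP, 7.39, 7.38 and 7.16 in cPTIO, and 6.69, 6.32 and 6.34 in untreated seedlings. It rose in cPTIO by 0.86 over untreated (SE 0.16, limma adjusted p = 0.0223), or 1.82-fold, with all cPTIO arrays above all others. Omitting cPTIO replicate 1, untreated replicate 2 or untreated replicate 3 ended the call (limma adjusted p from 0.0674 to 0.095). Over both treatments it rose by 0.56 (limma adjusted p = 0.0474), a call lost under 9 of 15 other settings, the replicate block among them (0.0788). That block grouped all 9 arrays by replicate number, untreated ones included, a pairing the data did not show for them. LDH1, the gene for lactate dehydrogenase, which ferments pyruvate to lactate, averaged 6.65 in SNP, 7.25 in cPTIO and 6.54 in untreated seedlings, and its cPTIO minus untreated difference was 0.71 (limma adjusted p = 0.129). With the replicate block LDH1 was called there and, at -0.60, in SNP minus cPTIO (limma adjusted p = 0.0241 and 0.0487). ACS, the gene for the acetyl-CoA synthetase that can use acetate derived from acetaldehyde, averaged 7.82, 7.58 and 7.46 in those groups, with limma adjusted p-values from 0.268 to 0.720. Of 10 other fermentation genes, these 3 were matched, and of 4 other sucrose synthases none.

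In glycolysis, 5 of 21 listed genes were matched, and 1 of those 5 was called. ENO3, an enolase gene, fell in cPTIO, with a mean of 6.84 ± 0.14 against 7.41 ± 0.24 in untreated seedlings (SD, n = 3; log2 difference -0.57, limma adjusted p = 0.0399). It was 7.44 ± 0.04 in SNP, 0.60 above cPTIO (limma adjusted p = 0.0477). These calls were marginal: 10 and 11 of the 15 other settings ended them (highest limma adjusted p 0.134 and 0.164), among them the fit with the replicate block (0.0533 and 0.0684). The other 4 matched genes were not called. PFP-beta1, for a subunit of the pyrophosphate-dependent phosphofructokinase, averaged 8.88 ± 0.27 in SNP, 8.26 ± 0.56 in cPTIO and 8.09 ± 0.27 in untreated seedlings (SD, n = 3). Its SNP arrays lay above all untreated ones, with a difference of 0.79 (limma adjusted p = 0.147). PPDK, for pyruvate orthophosphate dikinase, averaged 8.38 ± 0.38 in SNP, 9.06 ± 0.58 in cPTIO and 8.28 ± 0.31 in untreated seedlings, with a cPTIO minus untreated difference of 0.78 (limma adjusted p = 0.171). GAPC2, a cytosolic glyceraldehyde phosphate dehydrogenase gene, and TPI, for triosephosphate isomerase, varied least, between 12.50 and 12.60 and between 11.51 and 11.77 over the 9 arrays.

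Of 39 other genes listed as induced by low oxygen in Arabidopsis, 21 were matched. In SNP against untreated, 0 rose and 1 fell, in cPTIO against untreated 2 rose and 0 fell, and in SNP against cPTIO 0 were higher and 3 lower. The backgrounds for those directions were 3.62% lower, 2.32% higher and 1.59% lower. The group means were lowest in SNP for 16 of the 21 (31.9% of all probe sets), and highest in cPTIO for 13 (38.6% of all). Their median difference was -0.79 for SNP minus untreated, 0.50 for cPTIO minus untreated and -1.22 for SNP minus cPTIO. With the replicate block 5 of the 21 were lower in SNP than in cPTIO (1.59% of all probe sets). AT1G33055 lost its call in that fit, and AT1G19530, AT4G39675 and the calmodulin-like gene CML38 gained one (limma adjusted p = 0.037, 0.0405 and 0.0465). Those 3 averaged 3.38, 4.36 and 4.38 in SNP, below the array medians, so the size of their differences is uncertain. Every SNP array lay below every cPTIO array in 13 of the 21, against 11.1% of all probe sets. Beside the 3 genes just named, others of those 13 had SNP means below the highest array median, the lowest at 3.02. The size of their differences, and of the list's median differences, is therefore uncertain. Untreated replicate 1 was the lowest untreated array in 19 of 21 (31.9% of all probe sets), and cPTIO replicate 3 the lowest cPTIO array in 14 (39.1% of all). In 4 of the 21 cPTIO replicate 3 was instead the highest cPTIO array, by more than 1 unit in 2, AT1G19530 and AT4G39675.

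The counts of called list genes moved with the setting, as did the calls over all probe sets. With array weights 11 of the 21 were lower in SNP than in cPTIO (3.54% of all probe sets), 9 lower and 1 higher in SNP than in untreated (8.41% and 7.24%), and 3 higher in cPTIO than in untreated (3.97%). With only the compared groups in the fit, 4 were lower and 2 higher in SNP than in untreated (6.25% and 4.48%). Omitting 1 array gave 1 to 9 lower in SNP against cPTIO. There were 9 without cPTIO replicate 3 (2.8% of all probe sets) and 1 without SNP replicate 1, SNP replicate 2, cPTIO replicate 1 or cPTIO replicate 2 (0.567%, 0.431%, 0.875% and 1.32%). In SNP against untreated 0 to 6 were lower, with 6 without untreated replicate 1 (2.57%) and 5 without cPTIO replicate 3 (6.32%). In cPTIO against untreated 0 were higher without untreated replicate 2 (0.11%) and 5 without cPTIO replicate 3 (3.54%).

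**Figure D4:**
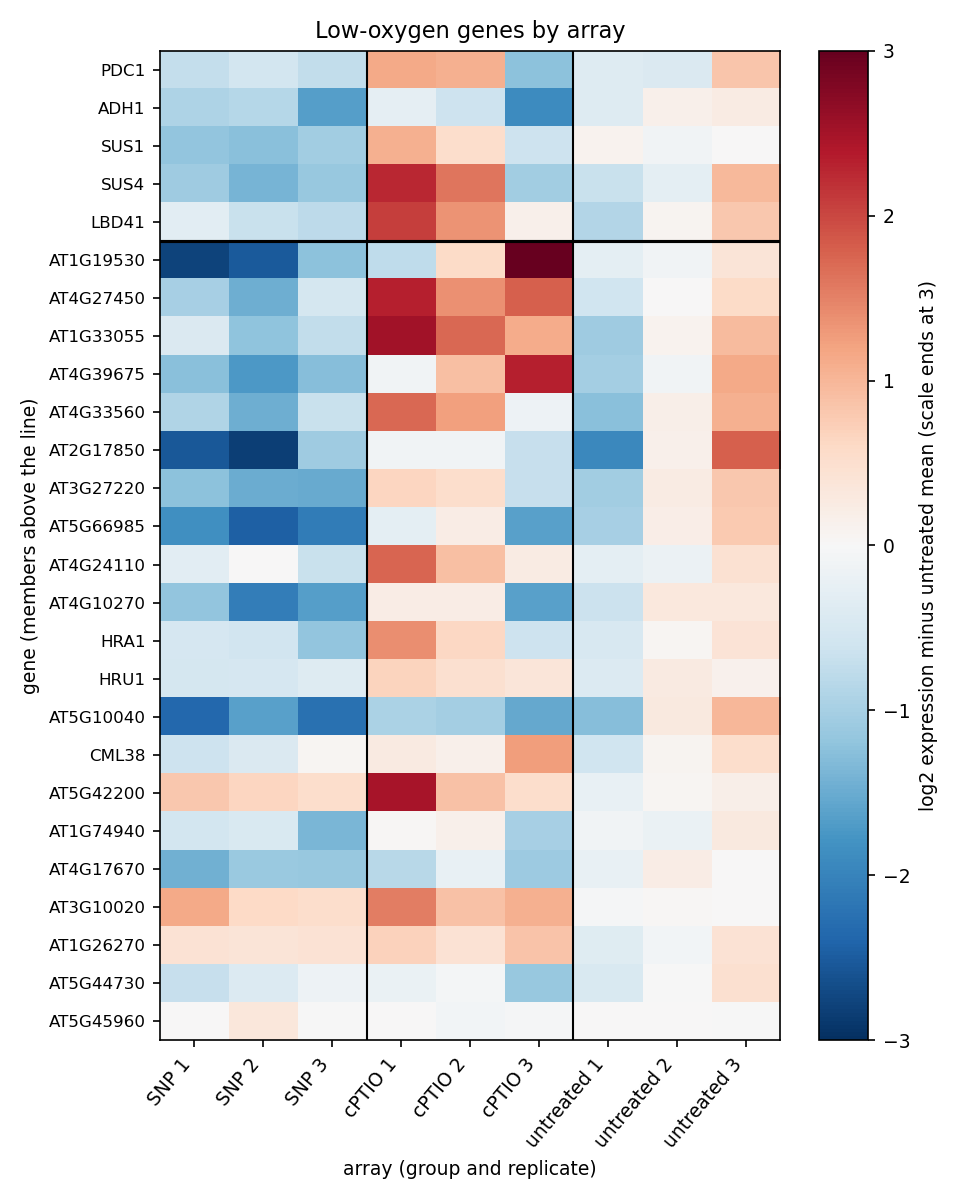
Log2 expression of the 5 members (above the line) and of the 21 other low-oxygen genes (below it, ordered by SNP minus cPTIO) on each array (x axis), as the difference from the untreated mean. Red is higher and blue lower, and colours end at 3. The 3 SNP columns are mostly blue, and cPTIO replicate 3 differs from the other cPTIO columns in all 5 members.

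AT4G27450 showed the clearest separation on that list. It measured 7.20, 6.73 and 7.67 in SNP, 10.51, 9.56 and 9.97 in cPTIO, and 7.60, 8.20 and 8.76 in untreated seedlings, so that cPTIO replicate 3 stood with its group. It was 2.82 lower in SNP than in cPTIO (SE 0.36, limma adjusted p = 0.00751), or 7.05-fold, and the call held under all 15 other settings. It rose in cPTIO by 1.83 over untreated (SE 0.36, limma adjusted p = 0.0269), a call lost without cPTIO replicate 1, untreated replicate 1 or untreated replicate 2, and in the fit of these groups alone (limma adjusted p up to 0.1). AT1G33055 measured 6.61, 5.84 and 6.30 in SNP, 9.57, 8.76 and 8.15 in cPTIO, and 5.98, 7.16 and 7.99 in untreated seedlings. Its SNP minus cPTIO difference was -2.58 (SE 0.52, limma adjusted p = 0.0387), lost with the replicate block (limma adjusted p = 0.0711) and without any SNP array, cPTIO replicate 1, cPTIO replicate 2 or untreated replicate 2 (limma adjusted p up to 0.159).

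HRU1, a universal stress protein gene of the low-oxygen response, averaged 7.96 ± 0.08 in SNP, 8.94 ± 0.16 in cPTIO and 8.43 ± 0.36 in untreated seedlings (SD, n = 3). It was 0.98 lower in SNP than in cPTIO (SE 0.17, limma adjusted p = 0.024), and the call was lost without SNP replicate 1, SNP replicate 2, cPTIO replicate 1 or cPTIO replicate 2 (limma adjusted p up to 0.109). AT3G10020 was the one matched gene on the list that was called higher over both treatments together: it measured 6.21, 5.67 and 5.60 in SNP, 6.59, 5.95 and 6.14 in cPTIO, and 5.02, 5.10 and 5.07 in untreated seedlings. All 6 treated arrays lay above untreated, as in 5.8% of all probe sets, with a mean difference of 0.96 (SE 0.17, limma adjusted p = 0.0167). Omitting any 1 of the untreated arrays ended that call (limma adjusted p from 0.0567 to 0.0793). It rose by 1.16 in cPTIO over untreated (SE 0.2, limma adjusted p = 0.0179), a call lost without untreated replicate 2 or untreated replicate 3 (limma adjusted p up to 0.0745). In SNP the difference was 0.76 (limma adjusted p = 0.062, or 0.042 with the replicate block). AT4G17670 averaged 4.77 ± 0.18 in SNP, 5.28 ± 0.45 in cPTIO and 6.0 ± 0.22 in untreated seedlings, and fell in SNP by 1.23 (SE 0.22, limma adjusted p = 0.0184). Without SNP replicate 1, SNP replicate 2, untreated replicate 2 or untreated replicate 3 its call was lost (limma adjusted p up to 0.0786). Over both treatments together it fell by 0.97 (limma adjusted p = 0.0228), a call that 4 of 15 other settings ended (limma adjusted p up to 0.116).

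Of the 16 genes listed for oxygen sensing, which include the group VII factors and the plant cysteine oxidases that mark them for degradation, 1 was matched. That gene, HRA1, is also 1 of the 21 low-oxygen genes counted above, so its values are no addition to them. HRA1, the trihelix factor that restrains a group VII factor, measured 4.06, 4.00 and 3.38 in SNP, 5.97, 5.20 and 3.95 in cPTIO, and 4.08, 4.64 and 4.99 in untreated seedlings. As in the members, cPTIO replicate 3 lay more than 1 unit below the other cPTIO arrays, and its limma adjusted p-values were between 0.218 and 0.879. Its SNP mean of 3.82 lay below the array medians, so a level above background was not shown there.

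The non-member genes with the most similar profile to each member were found by Pearson's r over the 9 arrays. The candidates were 4034 probe sets of a single gene with a mean of at least 6 in any group. The members themselves were not among the candidates. Between members, r ran from 0.39 (ADH1 and LBD41) to 0.95 (PDC1 and SUS4), with 0.94 for SUS4 and LBD41. The 0.94 and 0.95 lie above some of the values below. These values describe 9 arrays that share group, treatment and normalisation. For LBD41 the closest candidates were AT1G33055 (r = 0.963), AT4G33560 (r = 0.956) and AT3G01820 (r = 0.92), the first 2 being on the low-oxygen list. For SUS4 they were AT1G24530 (r = 0.955), AT5G12470 (r = 0.935) and AT4G33560 (r = 0.932), and for SUS1 they were AT5G12470 (r = 0.954), AT5G55450 (r = 0.95) and AT5G10130 (r = 0.947). For PDC1 they were AT5G06700 (r = 0.947), AT1G24530 (r = 0.942) and AT3G52500 (r = 0.933). ADH1 was closest to a different set: AT5G38890 (r = 0.978), IMP4 (r = 0.974) and AT3G18600 (r = 0.957), whose mean levels were all higher in untreated than in either treatment.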

How the data were processed

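Total RNA of 9 seedling samples, 3 per group, was hybridised to 1 array each. The deposited values are log2 expression per probe set, made by the authors with RMA and limma per the submitters' processing notes, which give no versions. RMA normalises between arrays, so a shift shared by most transcripts would be removed. The number of arrays limits the precision. Groups and replicate numbers came from the sample titles. The 64 AFFX controls were set aside and 22746 probe sets tested without a filter, using limma 3.58.1 in R 4.3.3 on the 9 arrays, with no term but group (eBayes, two-sided, Benjamini-Hochberg). The script was tested on simulated data.

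The members and lists were chosen with earlier results of these data known. The text names the 5 members and each list gene called in any of 4 comparisons. It also names the matched genes of the fermentation, sucrose synthase and oxygen sensing lists, whether called or not. The 3 most similar genes per member, other members excluded, are named too. The matched tissue markers were RCA, EXPA7 and EXPA18. GAPC2, TPI, PFP-beta1, PPDK, AT1G19530, AT4G39675 and CML38 were named after their values were seen. Genes other than the members were named through the platform annotation (13513 probe sets with 1 gene, 503 with several, 8794 unlisted) and RefSeq TAIR10.1. No sequence was analysed. Deviations of same-numbered SNP and cPTIO arrays from their group means correlated at 0.257, 0.305 and 0.417. The numbers were therefore taken to pair those arrays, from the data and not the labels. SNP or cPTIO with untreated gave -0.0174 to 0.127 and was not paired. The main SNP minus cPTIO p-values do not use that pairing, and a paired fit of SNP and cPTIO alone was not run. Alternatives were median centring, a filter at a mean of 5, fits of the compared groups alone, array weights, a trended robust prior, the replicate block and omission of each array. Figures used Python 3.11.15 and matplotlib 3.10.9.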

Additional observations from a re-analysis of the deposited data

Results flagged for a closer look

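LBD41 had its 3 SNP arrays below and its 3 cPTIO arrays above the untreated mean, with an SNP minus cPTIO difference of -1.78 that limma did not call (adjusted p = 0.12). SNP and cPTIO differed by limma's own test in 4 of the matched list genes: AT4G27450 by -2.82 (adjusted p = 0.00751), AT1G33055 by -2.58 (adjusted p = 0.0387), HRU1 by -0.98 (adjusted p = 0.024) and ENO3 by 0.60 (adjusted p = 0.0477). The BioC spike-in, outside the tested probe sets, was 4.36-fold higher on the 6 treated arrays than on the 3 untreated ones, with no overlap. What moved it was not tested.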

How the results depend on the processing

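Each result was recomputed under 15 alternatives. Of 300 values for the members, 269 kept their direction and side of the threshold, 19 gained a call and 12 changed sign, none of the 12 a call. For the calls of the list genes, 177 of 255 values kept the call and 78 lost it. The number of members called, 0 in each comparison, is given here with the percentage of all tested probe sets called in the same fit. It became 2 in SNP against untreated with these groups alone (10.7%) or with array weights (15.7%). In SNP against cPTIO it became 1 with the filter at 5 (5.96%), 1 with the trended robust prior (3.28%) and 3 with array weights (7.26%). Over both treatments it became 1 with array weights (15.0%). Leaving out 1 array gave 0 to 2 for SNP against untreated, 0 to 2 for cPTIO against untreated, 0 to 4 for SNP against cPTIO and 0 for both treatments. The 2, 2 and 4 came without cPTIO replicate 3 (11.2%, 9.29% and 5.77%). With the replicate block 0 members were called; it changed the calls given beside LDH1, PDC2, ENO3, AT1G33055, AT3G10020, AT1G19530, AT4G39675 and CML38, and no other call among the list genes.

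Calls over all probe sets numbered 1409 for SNP against untreated, 1498 for cPTIO against untreated, 742 for SNP against cPTIO and 1647 for both treatments. With the compared groups alone they were 2440, 280, 267 and 893, the last from SNP and cPTIO merged into 1 group. With array weights they were 3560, 2260, 1652 and 3412, and with the replicate block 1496, 1612, 741 and 1839. Leaving out 1 array gave 500 to 2542, 122 to 2114, 161 to 1313 and 328 to 2832. BioC's difference ran from 2.03 to 2.26, and without an untreated array the exact permutation p was 0.0714, the smallest that 6 against 2 allows. Since BioC was picked for its separation, these p-values only describe it.

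The signs that changed were those of small differences. SNP minus cPTIO of ADH1 was 0.03 without SNP replicate 3 and 0.11 without cPTIO replicate 1. cPTIO minus untreated of PDC1 was -0.08 without cPTIO replicate 1 and -0.04 without cPTIO replicate 2, and that of SUS1 -0.05 without cPTIO replicate 1. Over both treatments PDC1 gave 0.17 with array weights, 0.22 without cPTIO replicate 3 and 0.24 without untreated replicate 3, SUS4 gave 0.15, 0.36 and 0.35 in the same settings, and LBD41 gave -0.15 without untreated replicate 1. Leaving out 1 array moved those 6 differences between -0.71 and 0.11 for ADH1, -0.08 and 1.10 for PDC1 in cPTIO, -0.05 and 0.80 for SUS1, -0.39 and 0.24 for PDC1 over both, -0.47 and 0.36 for SUS4, and -0.15 and 0.70 for LBD41. The cause was not tested. No detection calls were used, so differences of members and list genes whose SNP means lay below the highest array median are of uncertain size. Those named above are SUS4, HRA1, AT1G19530, AT4G39675 and CML38, and the low-oxygen list held others.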
